A study of Mus musculus with 23 samples.

Results

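The genes described here are 32 listed targets of PPAR alpha and genes of fatty acid oxidation, measured in mouse liver. A gene was represented by the probe set annotated to it alone with the highest mean over the 23 arrays, and 30 of the 32 genes had one, among 18193 genes represented in this way. Cyp4a10 and Cpt1b had no probe set of their own. The only probe set for Cyp4a10 is shared with Cyp4a31, and the only one for Cpt1b is shared with Gm44502 and Chkb, so these are given as shared signals. The choice of probe set used no comparison between groups.

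The animals were male mice, hemizygous FVB/N-SULT1A1/2, which carry human sulfotransferases 1A1 and 1A2 in every group, controls included. Treated mice received 1-MIM-OH (1-methoxy-3-indolylmethyl alcohol) by mouth, 3 doses a week of 26 mg/kg, and vehicle mice received glyceryl trioctanoate alone. Livers were taken 24 h after 10 treatments over 21 d (6 vehicle and 5 treated mice) or after 40 treatments over 90 d (6 vehicle and 6 treated mice). The labels give an age of 5 weeks for all 4 groups, and 1 treated array of the 21 d group was left out by the submitters. The vehicle is a triglyceride of octanoate, a medium-chain fatty acid, and there were no mice without it, so every value below comes from an animal that had been given fat. Vehicle at 90 d was therefore also set against vehicle at 21 d, where age, number of vehicle doses and time of processing cannot be told apart.

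PPAR alpha is a nuclear receptor that is activated by fatty acids and by fibrate drugs. It pairs with the retinoid X receptor on DNA elements of the DR1 type, a direct repeat of hexamers separated by 1 base, and in liver it switches on genes for fatty acid transport, mitochondrial and peroxisomal beta-oxidation and microsomal omega-oxidation during fasting. Its activity in mouse liver is commonly read from Cyp4a10 and Cyp4a14, which respond far more steeply than the enzymes of mitochondrial beta-oxidation.

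No member passed the adjusted threshold in any comparison of groups with all arrays, and several varied widely between animals of the same group. At an adjusted p under 0.05 (limma, Benjamini-Hochberg over 45037 probe sets), 0 of 30 members passed for treated against vehicle at 21 d, where 1.17% of all genes passed. At 90 d 0 of 30 passed against 0.748% of all genes, and for the difference of the treatment effects 0 of 30 against 0%. For vehicle at 90 d against 21 d the count was 0 of 30 against 0.011% of genes, and for treated at 90 d against 21 d it was 0 of 30 against 0.0934%. At background shares this low a count of 0 among 30 does not set the members apart from other genes. At an unadjusted p under 0.05 in limma, the counts in the same order were 3, 3, 0, 2 and 2 of 30, beside 16.6, 12.1, 8.64, 6.43 and 13.3% of all genes. No member had groups whose values did not overlap, beside 2.81% of genes for treatment at 21 d, 1.35% at 90 d, 0.808% between the vehicle groups and 0.616% between the treated groups. The exceptions to the count of 0 came only when arrays were left out: Fgf21 passed at 21 d without vehicle replicate 1 (log2 fold change -0.49, limma adjusted p = 0.0355), and Cd36 did without the 5 arrays with the most signs of shortened RNA (1.45, adjusted p = 0.0336), which leaves 1 treated array there and turns the sign of -0.16 with all arrays. Between the treated groups, Plin2 (0.31, adjusted p = 0.0242) and Cd36 (0.73, adjusted p = 0.0367) passed without treated 21 d replicate 2.

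The median log2 fold change of the 30 members was -0.06 for treatment at 21 d and -0.01 at 90 d, beside -0.02 and 0.02 over all genes. Between the vehicle groups it was 0.01, beside -0.01 over all genes. The intervals cover the sampling error of this fit and not what depends on the arrays used. At 21 d, leaving out the 5 arrays with the most signs of shortened RNA left 1 treated array. The effects of members such as Aldh3a2 (-0.88), Plin2 (0.39) and Cd36 (1.45) then lay outside their intervals from all arrays. Those intervals were -0.48 to 0.23, -0.24 to 0.14 and -0.76 to 0.43. The 95% interval of the treatment effect lay within 1.5-fold either way for 20 members at 21 d and for 21 at 90 d, and within 2-fold for 26 and 27. The members whose interval reached beyond 2-fold were Cyp4a14, Acot3, Pdk4 and Vnn1 at 21 d and Cyp4a14, Acot1 and Acot3 at 90 d, so for these the data set a looser limit. For vehicle at 90 d against 21 d, 21 members lay within 1.5-fold and 26 within 2-fold.

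**Figure D1:**
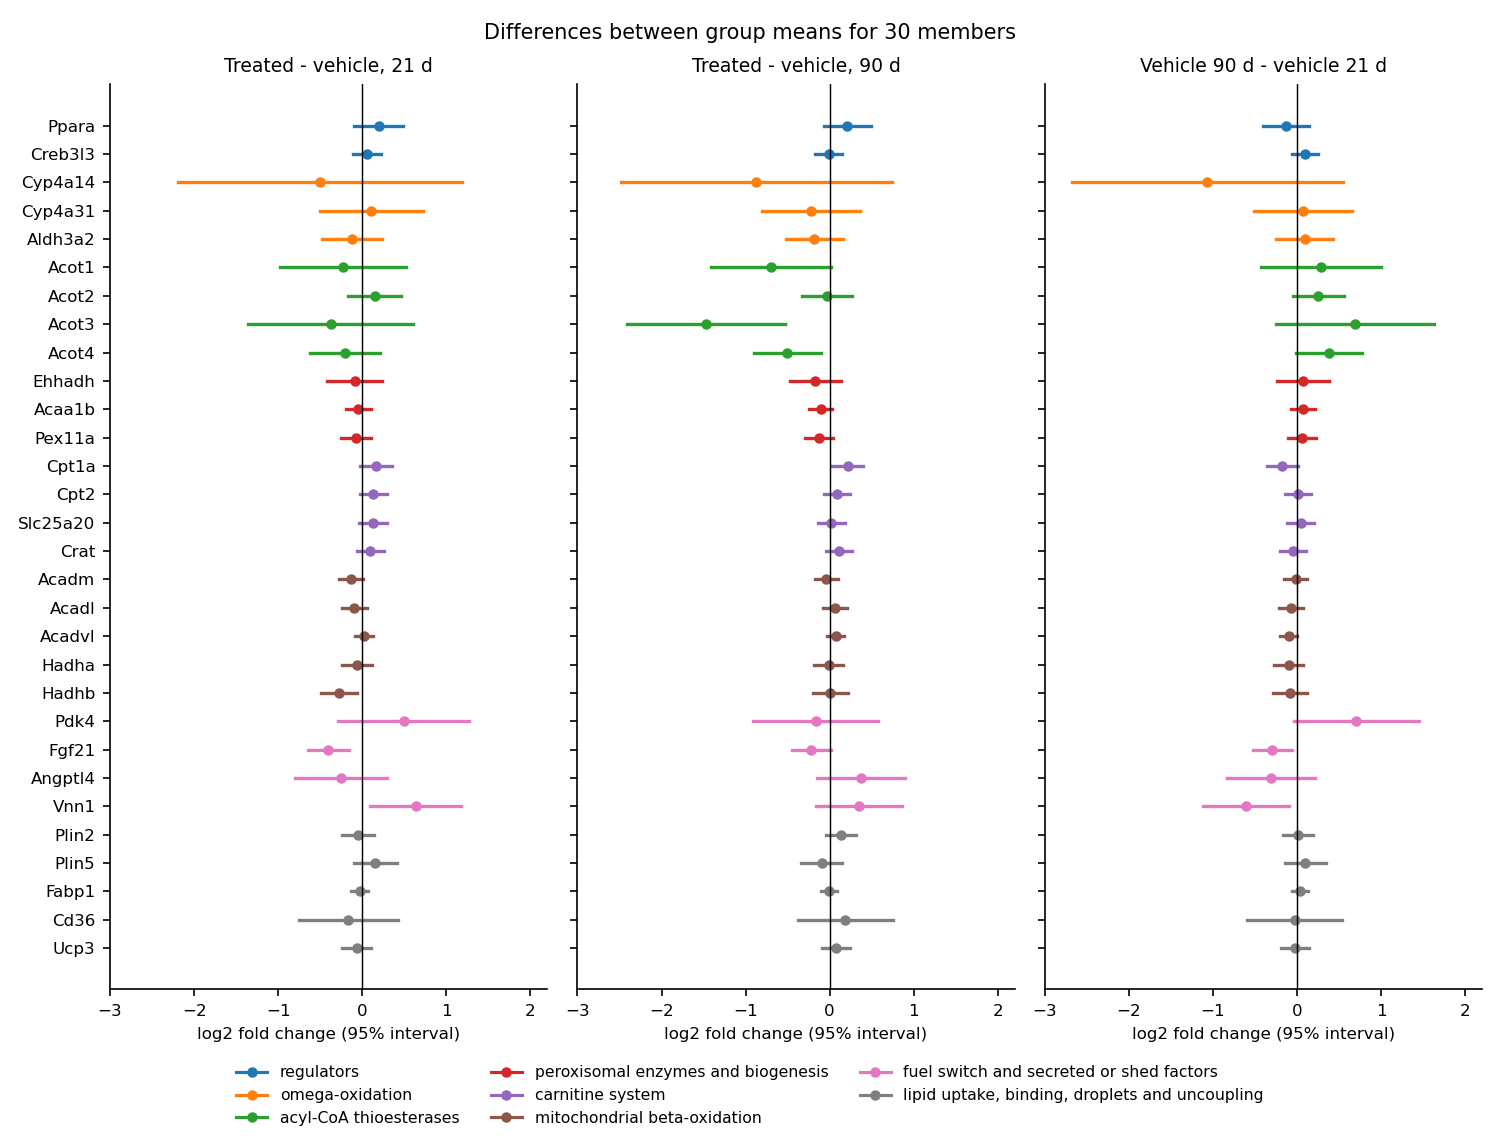
Log2 fold changes of the 30 members (rows, coloured by role) for treated against vehicle at 21 d, at 90 d, and for vehicle at 90 d against 21 d; points are limma estimates and bars are 95% intervals. Most bars are short and cross 0, whereas those of Cyp4a14 and Acot3 are the widest; Cyp4a14 spans -2.48 to 0.74 at 90 d.

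Some features of the arrays move with the groups or with single animals and are given here for the results they touch. Shortened RNA or product was read from the Gapdh controls as signal at the 3' end minus signal at the 5' end. This Gapdh difference was 0.33 ± 0.13 (SD, n = 6) in vehicle and 1.00 ± 0.51 (SD, n = 5) in treated livers at 21 d (2-sided exact permutation p = 0.0216). In vehicle livers at 90 d it was 0.50 ± 0.15 (SD, n = 6; exact permutation p = 0.0758 against vehicle at 21 d). The same difference for beta-actin was 1.76 in vehicle at 21 d and 1.94 in vehicle at 90 d (exact permutation p = 0.039). The Gapdh difference was above 0.9 on treated 21 d replicates 1, 3, 4 and 5 and on treated 90 d replicate 6. Treated 21 d replicate 2 had 0.14, and it also had the highest mean of the 7 Kupffer cell and macrophage markers, 11.42, where the other 4 treated livers at 21 d had 8.85 to 9.12. In treated 90 d replicate 5, 6 of 7 muscle markers stood above their values on the other 22 arrays, among them Acta1 (12.94 against at most 10.53), Mb (12.36 against 9.60) and Ckm (10.93 against 8.06), while Actc1 (5.79) did not. The mean of the 9 hepatocyte markers was between 14.28 and 14.47 in all 23 livers. In whole tissue, fewer cells of a type and less RNA per cell cannot be told apart.

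The regulators did not pass in any comparison. Ppara encodes the receptor itself. Its mean log2 signal at 21 d was 11.12 ± 0.22 (SD, n = 6) without and 11.32 ± 0.36 (SD, n = 5) with treatment, and 10.99 ± 0.14 and 11.20 ± 0.25 (SD, n = 6 each) at 90 d. Its treatment effects of 0.20 (95% interval -0.09 to 0.49) and 0.21 (-0.06 to 0.49) did not pass (limma adjusted p = 0.545 and 0.63). At 21 d the sign of Ppara depended on how the Gapdh difference was handled, being -0.01 with it as a covariate and -0.29 without the 5 arrays above 0.9. Creb3l3, a liver transcription factor that acts with PPAR alpha on Fgf21 in fasting, had group means between 11.64 and 11.73.

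Omega-oxidation starts when CYP4A enzymes hydroxylate the end of a fatty acid, and Cyp4a14 was the member that varied most. In vehicle livers at 21 d its log2 signal was 8.51 in the lowest animal, 10.54 at the median and 11.68 in the highest. The treated livers at 21 d had 8.54, 9.43, 9.87, 10.10 and 12.08. In vehicle livers at 90 d the lowest, median and highest were 7.74, 9.67 and 11.04, and in treated livers at 90 d they were 6.27, 8.21 and 11.38. All 4 groups overlap broadly, and each holds animals well apart from one another. The 90 d groups reach lower than the 21 d groups: the lowest 6 of the 23 values are from animals at 90 d. Treated minus vehicle was -0.50 ± 0.82 (SE) at 21 d and -0.87 ± 0.78 (SE) at 90 d (limma adjusted p = 0.835 and 0.76). Vehicle at 90 d was 1.07 ± 0.78 (SE) below vehicle at 21 d, a mean level 2.09-fold lower, and treated at 90 d was 1.44 ± 0.82 (SE) below treated at 21 d (adjusted p = 0.926 and 0.451). These comparisons share groups and are not separate evidence of one another.

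The shared signal of Cyp4a31 and Cyp4a10 also overlapped between all groups. It was between 9.48 and 12.62 in vehicle and between 10.07 and 13.02 in treated livers at 21 d, and between 9.90 and 12.51 and between 9.15 and 12.70 at 90 d. Treatment effects were -0.15 ± 0.65 (SE) and -0.54 ± 0.62 (SE), with limma adjusted p = 0.949 and 0.82. The probe set of Cyp4a31 alone had group means from 7.02 to 7.28, with treatment effects of 0.11 ± 0.30 (SE) and -0.22 ± 0.28 (SE). Aldh3a2, the fatty aldehyde dehydrogenase, had group means from 10.60 to 10.81. Cyp4a genes are close relatives, and whether their transcripts bind to each other's probes was not tested.

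Acyl-CoA thioesterases cleave fatty acyl-CoA to free acid and CoA. Acot1 is cytosolic, Acot2 mitochondrial and Acot3 and Acot4 peroxisomal, and the genes lie together in a cluster. Acot3 had the largest treatment effect of the members at 90 d. Its log2 signal in vehicle livers at 90 d was 7.97, 8.44, 8.83, 9.54, 9.67 and 10.31, and in treated livers 6.56, 7.36, 7.59, 7.74, 8.08 and 8.6. The lowest 4 of these 12 values were from treated livers and the highest 4 from vehicle livers, with overlap between them. Acot3 was thus 2.77-fold lower with treatment at 90 d, a log2 fold change of -1.47 ± 0.45 (SE; 95% interval -2.41 to -0.53; limma adjusted p = 0.188). At 21 d the difference was -0.38 ± 0.48 (SE), and the change in effect between the times was -1.10 ± 0.66 (SE; adjusted p = 0.592).

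Acot4 was also lower at 90 d by unadjusted p. It had 6.61 to 7.77 (median 7.01) in vehicle and 5.91 to 6.98 (median 6.64) in treated livers, and the difference was -0.50 ± 0.19 (SE; limma adjusted p = 0.334). Its second probe set gave -0.51 (adjusted p = 0.269). Acot1 had 8.44 to 9.97 (median 9.54) in vehicle and 7.41 to 9.54 (median 8.72) in treated livers at 90 d, with a difference of -0.70 ± 0.35 (SE; adjusted p = 0.5), and a probe set shared by Acot1 and Acot2 gave -0.54 ± 0.30 (SE; adjusted p = 0.569). Acot2 differed by -0.03 ± 0.15 (SE). None of the thioesterases passed. In the vehicle groups they were higher at 90 d than at 21 d, by 0.69 for Acot3, 0.38 for Acot4, 0.28 for Acot1 and 0.26 for Acot2 (adjusted p from 0.849 to 0.96), opposite in sign to Cyp4a14.

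The peroxisomal members differed little between groups. Ehhadh, the bifunctional enzyme of peroxisomal beta-oxidation, had group means of 12.61 to 12.78. Acaa1b, a peroxisomal thiolase, had 14.32 to 14.43, and Pex11a, which acts in peroxisome division, had 10.66 to 10.78. Their treatment effects were -0.09, -0.05 and -0.07 at 21 d and -0.17, -0.11 and -0.12 at 90 d, with limma adjusted p of 0.631 or higher.

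The carnitine system carries long-chain acyl groups into mitochondria. Cpt1a, which commits them to oxidation at the outer membrane, was 11.51 to 11.80 (median 11.60) in vehicle and 11.61 to 12.14 (median 11.87) in treated livers at 90 d. The difference was 0.21 ± 0.09 (SE; limma adjusted p = 0.389). At 21 d it was 0.16 ± 0.09 (SE), where 4 of the 5 treated livers lay between 12.03 and 12.09 and all 6 vehicle livers at or below 11.95. The other Cpt1a probe sets gave -0.06 and -0.12 at 90 d, so its sign is not fixed. Cpt2, the inner membrane transferase, had treatment effects of 0.13 ± 0.08 (SE) and 0.09 ± 0.07 (SE), and Slc25a20, the carnitine carrier, of 0.13 ± 0.08 (SE) and 0.02 ± 0.08 (SE). Crat, which makes acetylcarnitine, had effects of 0.10 ± 0.08 (SE) and 0.11 ± 0.08 (SE). Another probe set of Crat gave 0.43 ± 0.11 (SE) at 21 d, just short of passing (adjusted p = 0.0502), and 0.03 at 90 d. The probe set that Cpt1b, the muscle form, shares with Gm44502 and Chkb was between 5.15 and 5.86 on 22 arrays and 7.17 on treated 90 d replicate 5, the array with the high muscle markers.

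Mitochondrial beta-oxidation was represented by the acyl-CoA dehydrogenases for very long (Acadvl), long (Acadl) and medium (Acadm) chains and by both subunits of the trifunctional protein (Hadha and Hadhb). Group means were 12.58 to 12.70 for Acadvl, 12.35 to 12.44 for Acadl, 13.35 to 13.48 for Acadm and 10.88 to 10.99 for Hadha. The 95% intervals of all their treatment effects lay within -0.28 and 0.21. Hadhb was 12.14 to 12.53 in vehicle and 11.95, 11.98, 12.05, 12.18 and 12.31 in treated livers at 21 d, a difference of -0.27 ± 0.10 (SE; limma adjusted p = 0.191). At 90 d it was 0.01 ± 0.10 (SE). Hadhb is named here because of its unadjusted p. Within groups it ran against the Gapdh 3' minus 5' difference (r = -0.76 over 23 animals, a description), and once that difference was entered as a covariate its value at 21 d was 0.0053 (limma adjusted p = 0.996). Its other probe sets gave 0.08 and 0.17 at 21 d.

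The next group holds the fuel switch and secreted or shed factors. Fgf21, a fasting hormone made by liver under PPAR alpha, came closest to passing at 21 d. Vehicle livers had 6.51, 6.81, 6.97, 7.03, 7.12 and 7.17, and treated livers 6.29, 6.4, 6.63, 6.66 and 6.68. All treated values were below all but 1 of the vehicle values, that of replicate 1. Fgf21 was 1.32-fold lower, a log2 fold change of -0.40 ± 0.12 (SE; 95% interval -0.65 to -0.16; limma adjusted p = 0.0873). Over all alternatives at 21 d the value stayed between -0.65 and -0.34 and its adjusted p between 0.0355 and 0.281. At 90 d the medians were 6.70 in vehicle and 6.5 in treated livers (difference -0.22 ± 0.11 SE; adjusted p = 0.525), and vehicle at 90 d was 0.29 ± 0.11 (SE) below vehicle at 21 d (adjusted p = 0.764). These are low signals, and without raw scans they could not be set against background.

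Vnn1, which encodes pantetheinase, an enzyme of CoA precursor recycling, had 5.99 to 7.15 (median 6.96) in vehicle livers and 6.69, 7.22, 7.53, 7.63 and 8.07 in treated livers at 21 d. At 90 d vehicle livers had 5.66 to 6.73 (median 6.20) and treated livers 5.69 to 7.25 (median 6.49). The median was higher at 21 d than at 90 d for either treatment, and higher in treated than in vehicle livers at each time, with overlap throughout. The treatment effect was 0.63 ± 0.26 (SE; limma adjusted p = 0.227) at 21 d and 0.35 ± 0.25 (SE; adjusted p = 0.682) at 90 d. Vehicle at 90 d was 0.61 ± 0.25 (SE) below vehicle at 21 d (adjusted p = 0.775), and treated at 90 d was 0.89 ± 0.26 (SE) below treated at 21 d (adjusted p = 0.161). A second Vnn1 probe set gave 0.77 (adjusted p = 0.113) and 0.43 for treatment at the 2 times.

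Pdk4, the kinase that shuts off pyruvate dehydrogenase when fat is burnt, had 6.32 to 7.11 (median 6.74) in vehicle and 6.48, 6.88, 7.17, 7.59 and 7.85 in treated livers at 21 d, a difference of 0.50 ± 0.38 (SE; limma adjusted p = 0.578). At 90 d it had 6.15 to 8.46 (median 7.45) in vehicle and 6.31 to 8.97 (median 7.04) in treated livers, a difference of -0.17 ± 0.36 (SE). The value of 8.97 is that of the array with high muscle markers, and muscle expresses Pdk4; its part there was not tested. Vehicle at 90 d was 0.71 ± 0.36 (SE) above vehicle at 21 d (adjusted p = 0.85). Angptl4, a secreted inhibitor of lipoprotein lipase, had a treatment effect of -0.25 ± 0.27 (SE) at 21 d and 0.37 ± 0.25 (SE) at 90 d (adjusted p = 0.718 and 0.664).

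Among the genes of lipid uptake, binding and storage, Fabp1, the fatty acid binding protein of the hepatocyte, had the smallest spread: all 23 values lay within 0.23 log2 units of one another, with group means of 14.98 to 15.04. These are near the highest value of any probe set on these arrays, and whether the signal is compressed there was not tested. Plin2, a coat protein of lipid droplets, and Cd36, a fatty acid translocase, were both highest in treated 21 d replicate 2. Cd36 there was 10.34, while the other treated livers at 21 d had 8.03, 8.11, 8.37 and 8.76 and vehicle livers 8.48 to 9.48. Plin2 there was 13.31, against 12.62, 12.75, 12.83 and 12.84 in the other treated and 12.86 to 12.97 in vehicle livers. That animal sets the mean of its group: with it the effect on Cd36 at 21 d was -0.16 ± 0.29 (SE; limma adjusted p = 0.847), and treated at 90 d against 21 d gave 0.32 ± 0.29 (SE) for Cd36 and 0.20 ± 0.09 (SE) for Plin2 (adjusted p = 0.662 and 0.342). The 4 other arrays are those with a large Gapdh 3' minus 5' difference, with which Plin2 and Cd36 ran in the opposite sense within groups (r = -0.75 and -0.69 over 23 animals), and the array itself has the highest macrophage markers, cells that express Cd36. That animal also stood apart in the acute phase genes, Dbp and Arntl. The part of any of these in the values was not tested. Plin5, a droplet protein of oxidative tissue, had group means of 10.14 to 10.30. Ucp3, a mitochondrial carrier of muscle and brown fat, had group means of 5.79 to 5.90, and its highest value, 6.24, was on the array with high muscle markers.

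**Figure D2:**
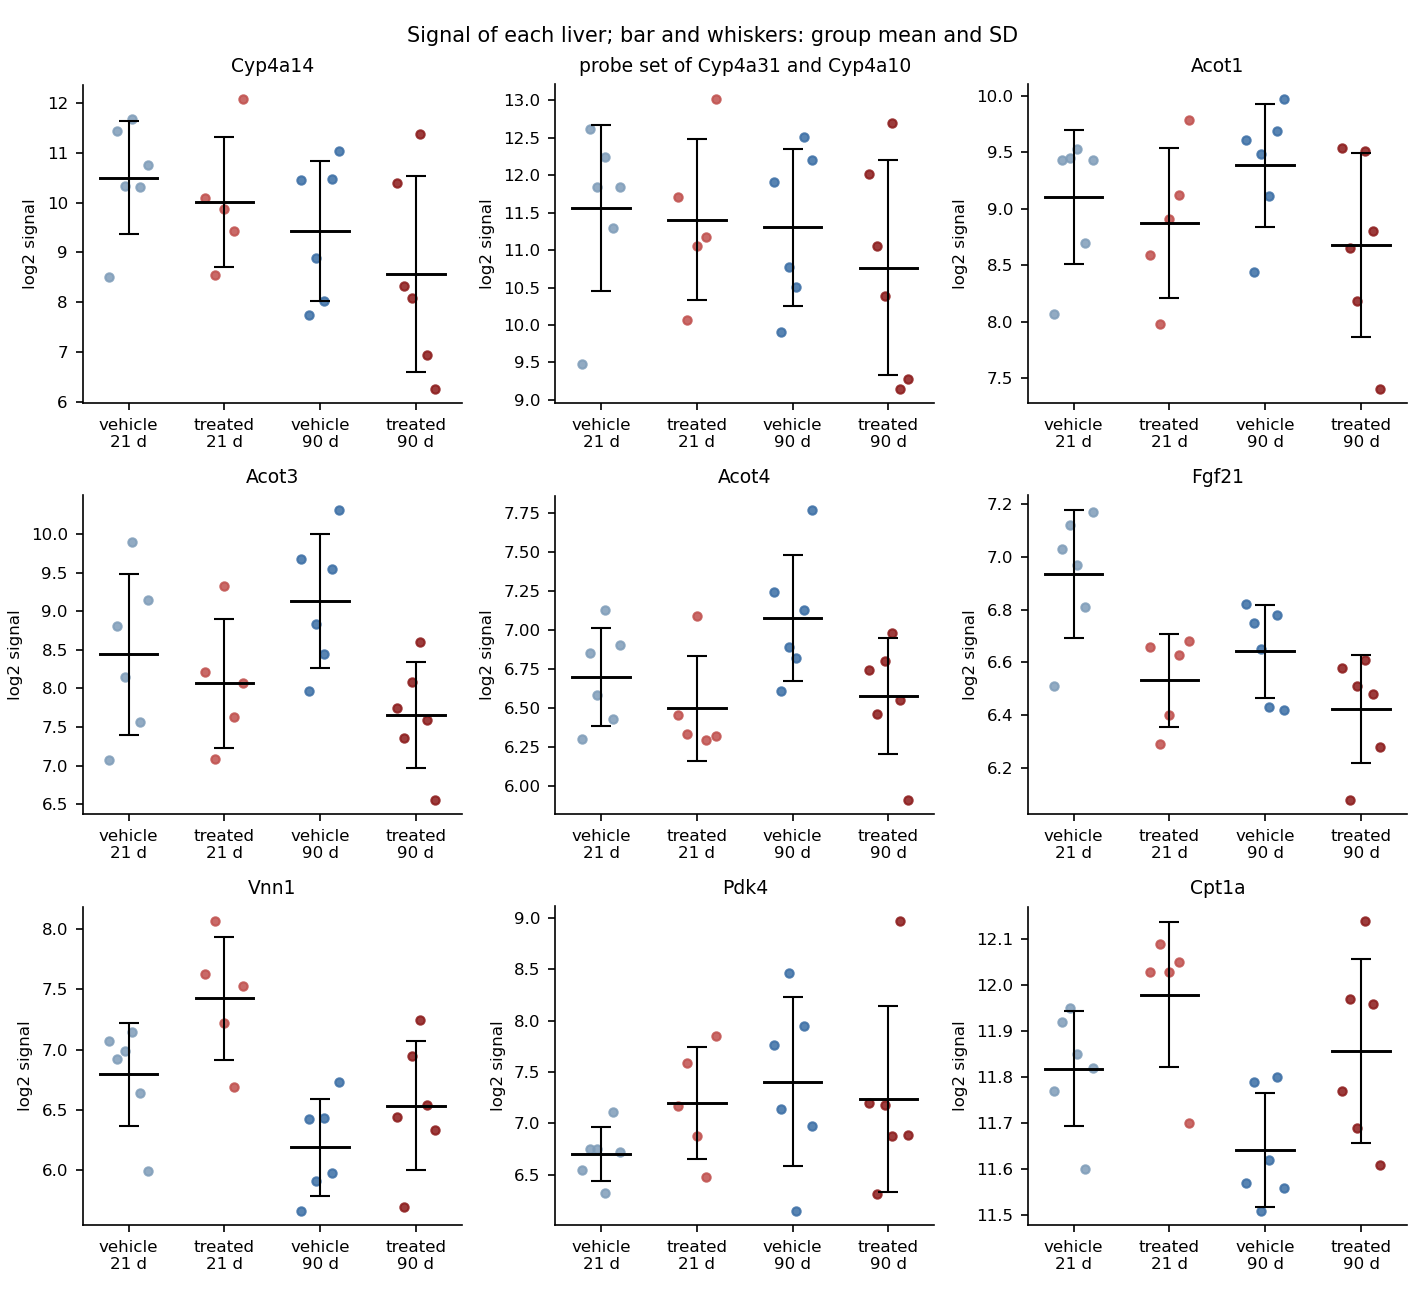
Log2 signal of each liver (points) for 8 members and the shared probe set of Cyp4a31 and Cyp4a10, in vehicle (blue) and treated (red) mice at 21 d and 90 d; bars and whiskers are group means and SD. The groups overlap in every panel; Fgf21 at 21 d and Acot3 at 90 d show the clearest offset, and Cyp4a14 ranges from 6.27 to 12.08.

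The spread between animals of the same group differed widely among the members. The SD within groups was 1.5 for Cyp4a14, and 0.066% of all genes varied as much or more. It was 0.87 for Acot3, 0.69 for Pdk4, 0.66 for Acot1, 0.54 for Cyp4a31, 0.52 for Cd36, 0.48 for Angptl4, 0.47 for Vnn1 and 0.36 for Acot4. These 9 members lay above 0.35, the 95th percentile of all genes, whereas the median gene had 0.15. At the other end Fabp1 had 0.05 and Acadvl 0.06, and 99.9% and 99.7% of genes varied as much or more. Acaa1b, Acadm and Acadl each had 0.11. The 3 acyl-CoA dehydrogenases thus varied less than most genes of the array, and Cyp4a14 and the thioesterases Acot1, Acot3 and Acot4 more than most.

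**Figure D3:**
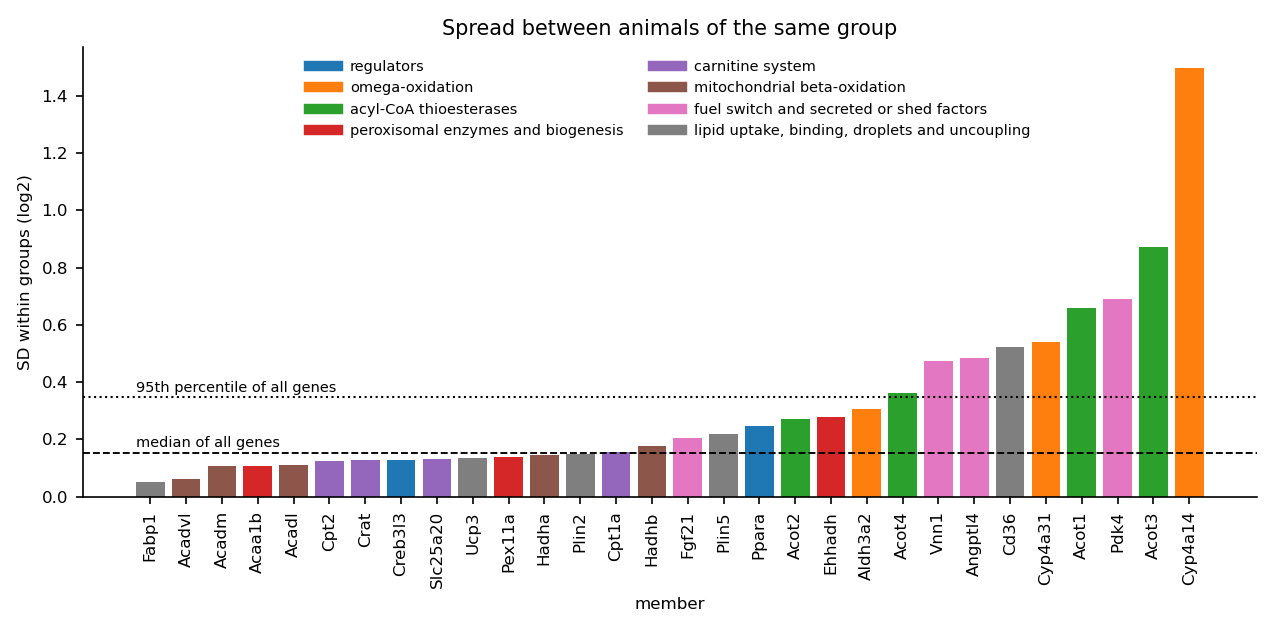
SD of log2 signal between animals of the same group, for each of the 30 members in order (bars, coloured by role), with lines at the median and the 95th percentile of 18193 genes. Cyp4a14 stands at 1.5 and Fabp1 at 0.05, and 9 members lie above the upper line.

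Several members, though not all of the variable ones, followed Cyp4a14 from animal to animal. To ask which genes did so, the Cyp4a14 level was added to the 4 group means in limma and its slope tested for all other probe sets; this fit was chosen after the correlations had been seen. Of the 29 other members, 4 passed, all with a positive slope, against 0.0989% of all genes (18 of 18192; 0.077% with a positive slope). They were Acot1 (slope 0.38 ± 0.05 SE per log2 unit of Cyp4a14, adjusted p = 0.000356), Acot2 (0.15 ± 0.02, adjusted p = 0.0173), Cyp4a31 (0.27 ± 0.05, adjusted p = 0.0323) and Ehhadh (0.14 ± 0.03, adjusted p = 0.0422). The shared probe set of Cyp4a31 and Cyp4a10 also passed (0.77 ± 0.04, adjusted p = 7.68e-10). Cyp4a31 is a close relative of Cyp4a14, and a further probe set is shared by Acot1 and Acot2. Whether such transcripts bind to each other's probes was not tested, so the passing members may not be separate signals. Just outside were Crat (adjusted p = 0.0545), Acot3 (0.0565), Aldh3a2 (0.0755) and Acot4 (0.0913). Of the 100 other pathway genes described below, 0 passed in this fit in either direction, beside 0.0989% of all genes. The lowest limma adjusted p among them was 0.0661, for Retsat (slope 0.16 ± 0.03 SE).

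How many members passed varied with the animals used. With 1 array left out at a time the count was between 1 and 6, and Acot1 was among them each time. It was 3 without the 2 animals farthest from the median, 1 (Acot3) within the 12 vehicle animals, 0 within the 11 treated animals and 8 with the Gapdh difference as a further term, where 1.85% of all genes passed. Acot1 alone passed without treated 90 d replicate 1 or vehicle 90 d replicate 2. The count was 2 without vehicle 21 d replicate 1, 2, 4 or 6, treated 90 d replicate 4 or 6, or vehicle 90 d replicate 1, 3 or 5. The counts within vehicle and within treated animals rest on fewer arrays. The correlations there were positive for these genes: for Acot1 r was 0.89 in vehicle and 0.86 in treated animals, for Crat 0.84 and 0.93, and for Ehhadh 0.70 and 0.81.

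Over all 23 animals, as deviations from group means, the shared probe set had r = 0.97 and Spearman rho = 0.96 with Cyp4a14 (permutation p = 1e-05 for both, the smallest that 100000 resamples can give; r = 0.96 without the 2 animals farthest from the median). Further r values, given as descriptions, were 0.87 for Acot1, 0.84 for Crat, 0.81 for Acot2, 0.77 for Ehhadh, 0.76 for Cyp4a31, 0.73 for Acot3, 0.72 for Aldh3a2, 0.71 for Acaa1b and 0.70 for both Cpt2 and Acadm. The slope of Acadm was 0.05 ± 0.01 (SE) log2 units per unit of Cyp4a14, which did not pass (limma adjusted p = 0.159).

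Other members had weaker relations to Cyp4a14 or none that could be seen. Pdk4 had r = 0.01 and rho = 0.06 (permutation p = 0.984 and 0.799; r = 0.27 without the 2 farthest animals). Fgf21 had r = 0.49 and rho = 0.55 (permutation p = 0.0267 and 0.0137; r = 0.52 without them). The permutation p of its r was 0.04 after adjustment over 3 relations, and its adjusted p was 0.348 over all probe sets in limma. The 3 relations were Pdk4 and Fgf21, which the design named, and the shared probe set, which stood in for the named Cyp4a10. The 0.04 rests on counting that stand-in, and no adjusted p over Pdk4 and Fgf21 alone was computed. The r of Cd36 was -0.10, of Plin5 -0.10, of Ucp3 -0.01, of Plin2 0.07, of Cpt1a 0.08 and of Vnn1 0.10. Ppara itself had r = 0.41 (limma adjusted p = 0.492).

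**Figure D4:**
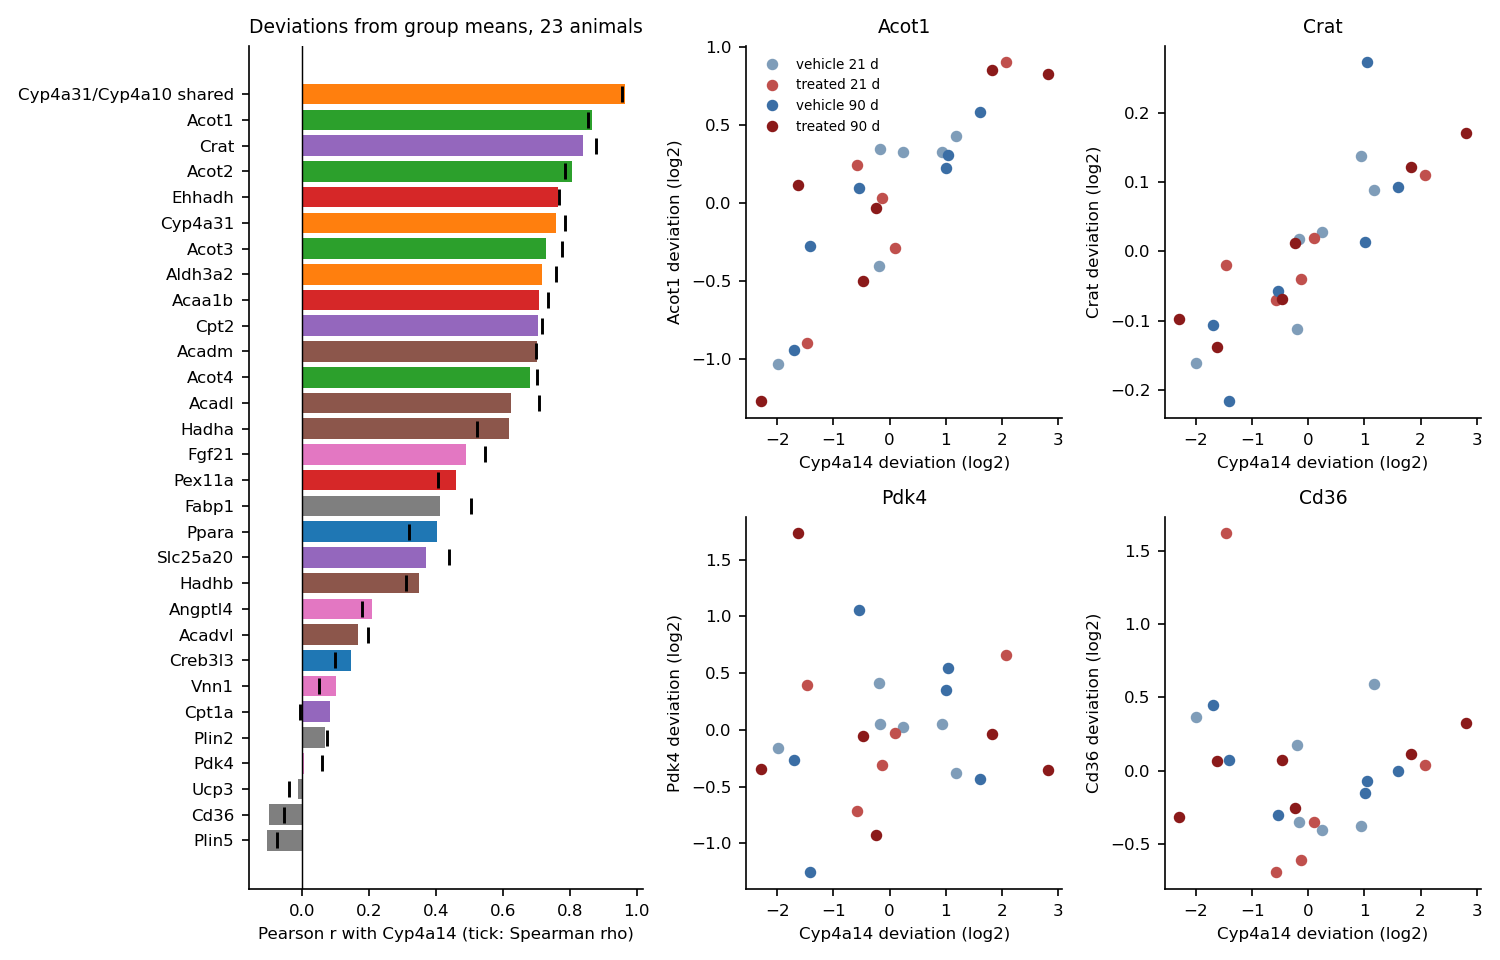
Left, Pearson r (bars, coloured by role) and Spearman rho (ticks) of each member with Cyp4a14 over 23 animals, as deviations from group means; right, the deviations of Acot1, Crat, Pdk4 and Cd36 against those of Cyp4a14, in log2 units, 1 point per animal coloured by group. Acot1 (r = 0.87) and Crat (r = 0.84) rise along Cyp4a14 in all groups, and Pdk4 (r = 0.01) and Cd36 (r = -0.10) do not.

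Ranked by r over all 18192 other genes, those closest to Cyp4a14 were Vldlr (0.90), the very low density lipoprotein receptor, Acot1 (0.87), Pctp (0.87), a phosphatidylcholine transfer protein, and Crat (0.84). Cyp2c50 (0.83), Kcna6 (0.83), Cyp2c37 (0.82) and Sult1a1 (0.81) followed. This ranking is a description over 23 animals.

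Levels of other cell types were set against Cyp4a14 in the same way, after the data had been seen, in a family of 14 relations. The B and T cell list held Cd3e, Cd3g, Cd79a, Cd79b and Ptprc, of which Ptprc is not particular to those cells. No r of single markers is given here. The mean of 5 B and T cell markers had r = -0.62 and rho = -0.62 (permutation p = 0.00109 and 0.00246; adjusted over 14, 0.0153 and 0.0172; r = -0.61 without the 2 farthest animals). The 7 Kupffer cell and macrophage markers had r = -0.61 and rho = -0.65 (permutation p = 0.00281 and 0.00186; adjusted 0.0197 and 0.0172; r = -0.61 without them). The mean of 12 acute phase genes, which hepatocytes make in inflammation, had r = -0.63 and rho = -0.56 (permutation p = 0.00492 and 0.0143; adjusted 0.023 and 0.0502; r = -0.60 without them). Liver endothelium markers had r = -0.51 and rho = -0.54 (permutation p = 0.021 and 0.00967; adjusted 0.0734 and 0.0451; r = -0.52 without them). Livers with less Cyp4a14 thus had higher signals of the first 3 lists, within vehicle animals (r = -0.60, -0.67 and -0.68) as within treated ones (-0.65, -0.58 and -0.60). The r over all 23 animals was near 0 for hepatocyte markers (0.05) and the clock genes Dbp (0.09) and Arntl (0.06). It was also near 0 for the lists of fasting (0.08) and refeeding genes (-0.06) and the Gapdh 3' minus 5' difference (0.02). The permutation p of r ran from 0.659 to 0.922 for these, which does not show that a relation is absent. Within vehicle animals their r was 0.45, -0.03, -0.10, 0.47, 0.23 and -0.06 in the same order. Within treated animals their r was -0.17, 0.14, 0.13, -0.11, -0.17 and 0.05. Without treated 21 d replicate 2 their r was 0.00, -0.19, 0.31, 0.26, -0.25 and -0.20 in the same order. The 4 other lists, of cholangiocytes, muscle, stellate cells and adipocytes, had r from -0.16 to 0.16. The part of any of these in the spread of Cyp4a14 was not tested.

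The promoter windows in the RefSeq table (GRCm38.p6; 250 bases before to 50 after the start) held 25 of the 32 genes and were searched on both strands for the DR1 motif, AGGTCA, any base N and AGGTCA again. No member had an exact match, 1 had a match with 1 mismatch and 7 with at most 2, beside 0.0481%, 0.644% and 4.4% of all 27025 genes in the table. The 7 were Fabp1, Acot4, Cd36, Creb3l3, Plin2, Slc25a20 and Ucp3. Shown are the closest match, that of Fabp1, the match of a thioesterase, and the best stretches of 3 genes that passed with Cyp4a14. Capitals mark the best match to the motif or its reverse complement, and letters run 5′ to 3′ on the gene's strand.
Fabp1, 1 mismatch, chr6:71199797-71199839, plus strand: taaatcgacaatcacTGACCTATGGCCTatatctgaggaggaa
Acot4, 2 mismatches, chr12:84038351-84038393, plus strand: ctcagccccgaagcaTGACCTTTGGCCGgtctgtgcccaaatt
Acot2, 3 mismatches, chr12:83987788-83987830, plus strand: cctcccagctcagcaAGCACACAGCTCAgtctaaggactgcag
Acot1, 4 mismatches, chr12:84009394-84009436, plus strand: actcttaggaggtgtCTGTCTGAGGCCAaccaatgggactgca
Ehhadh, 4 mismatches, chr16:21787880-21787922, minus strand: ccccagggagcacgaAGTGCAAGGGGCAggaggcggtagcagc

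The match of Fabp1 begins at position -67 from the start and that of Acot4 at position -13. Acot1 and Ehhadh, which followed Cyp4a14, had no match with under 4 mismatches in this window. A match is a description of letters and not a site of binding. Cyp4a14, Cyp4a10, Cyp4a31, Crat, Vnn1, Angptl4 and Cpt1b were not in the table.

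Of the other genes of the pathway, 100 were measured, and at an adjusted p under 0.05 they passed about as often as all genes did. At 21 d 1 of 100 passed, beside 1.17% of all genes: Abcd2, a peroxisomal carrier of very long-chain acyl-CoA, fell from 6.43 ± 0.45 (SD, n = 6) to 5.35 ± 0.34 (SD, n = 5), a difference of -1.07 ± 0.19 (SE) with a limma adjusted p = 0.0114. These are low signals: the treated mean lay below the lowest array median, 5.53, and background could not be judged. At 90 d 1 of 100 passed, beside 0.748% of all genes: Abhd5, the coactivator of adipose triglyceride lipase on lipid droplets, rose from 8.89 ± 0.15 to 9.44 ± 0.27 (SD, n = 6 each), by 0.54 ± 0.11 (SE; adjusted p = 0.0154). The changes at the other time were -0.66 ± 0.18 (SE; adjusted p = 0.126) for Abcd2 and 0.38 ± 0.11 (SE; adjusted p = 0.0866) for Abhd5, and the difference between the times did not pass for either (adjusted p = 0.618 and 0.744). The Abhd5 call was lost on the mean of its probe sets (0.19, adjusted p = 0.316) and the Abcd2 call once the Gapdh difference was a term of the fit (-0.90, adjusted p = 0.157). The latter was also lost without the 5 arrays with a large Gapdh difference and with a replicate block (adjusted p = 0.178 and 0.051), and the Abhd5 call without treated 90 d replicate 2 or vehicle 90 d replicate 5 (0.0556 and 0.0509). Leaving out treated 21 d replicate 2 gave a count of 13 of 100 at 21 d, while the count over all 45037 probe sets went from 431 to 2265. Leaving out treated 90 d replicate 6 gave 4, beside 905 probe sets. Without treated 90 d replicate 1 or vehicle 21 d replicate 1 the count was 2, beside 694 and 362 probe sets. At 90 d, where 226 probe sets passed with all arrays, the count rose to 3 without treated 90 d replicate 6, beside 389. It rose to 2 without vehicle 90 d replicate 4, beside 147 probe sets. Between treated groups, where 34 probe sets passed with all arrays, leaving out treated 21 d replicate 2 gave 6, beside 1644. Treated 90 d replicate 6 gave 3 and vehicle 21 d replicate 4 gave 1, beside 488 and 39 probe sets. At an unadjusted p under 0.05 in limma the treatment counts were higher, 37 of 100 at 21 d and 17 at 90 d, beside 16.6 and 12.1% of all genes. Of the 37, 15 were higher and 22 lower with treatment. Groups did not overlap for 5 of 100 at 21 d and 1 at 90 d, beside 2.81 and 1.35%. What lay behind the larger share at 21 d was not tested. For the difference of effects, between vehicle groups and between treated groups 0 of 100 passed, with 9, 8 and 19 at an unadjusted p under 0.05, beside 8.64, 6.43 and 13.3% of all genes. The median change of these genes was -0.03 at 21 d and -0.0025 at 90 d. The values of largest size in those comparisons were -0.74 for Acsl3 in the difference of effects, -0.65 for Lpl between vehicle groups, and -0.59 for Ppargc1b and -0.54 for Acacb between treated groups.

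By function, 0 of 13 genes of mitochondrial beta-oxidation and electron transfer passed at either time, with Echs1 lowest at 21 d (-0.47). Of 18 peroxisomal genes, 1 fell at 21 d (Abcd2) and 0 at 90 d. The counts were 0 of 2 for ketogenesis, 0 of 11 for uptake and activation, 0 of 5 for other omega-oxidation genes and 0 of 18 for further known targets at both times. Of 14 genes of droplet and triglyceride turnover, 1 rose at 90 d (Abhd5). Of 19 regulators and partners 0 passed, and Ppargc1b, a coactivator of mitochondrial genes, had the largest difference between the times (-0.55 ± 0.21 SE; limma adjusted p = 0.492): 8.67 ± 0.20 (SD, n = 6) in vehicle and 9.23 ± 0.43 (SD, n = 5) in treated livers at 21 d (0.56 ± 0.16 SE; limma adjusted p = 0.0756), and 0.01 ± 0.15 (SE) at 90 d. Of the lists on feeding state and clock, 0 of 12 fasting genes and 0 of 10 lipogenic genes passed at either time, and 1 of 17 clock genes did, beside 0.748% of all genes, Cry1 at 90 d (-0.52 ± 0.12 SE; adjusted p = 0.0462). None of these lists differed between the vehicle groups at an adjusted p under 0.05, where 2 of 12, 5 of 10 and 1 of 17 had an unadjusted p under 0.05, beside 6.43% of all genes.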

How the data were processed

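Liver RNA of 23 mice was measured on 1 Affymetrix array each. Per the submitters' processing notes the authors used Partek and RMA, and the deposited values are read here as log2 signals with 2 decimals; the base is inferred from the values and stated by no label. RMA gives the probe intensities of every array the same distribution before they are combined into probe sets, which hides a change shared by all transcripts. The array medians of the deposited values ran from 5.53 to 5.61. After 64 control probe sets were left out, 45037 probe sets were fitted with 4 group means in limma 3.58.1 (R 4.3.3; 19 residual degrees of freedom), with Benjamini-Hochberg adjustment over all of them. No block was used, since no label pairs the animals. The fit was tested on simulated data. SE is the moderated standard error. The number of arrays limits precision.

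The members and gene lists were chosen with earlier results of these data known. All members are named; full statistics went to passing members, to the 3 largest rises and falls in each contrast, and to Ppara and Cyp4a14, plus members with an unadjusted p under 0.05, added after the values were seen. Of other lists, passing genes were named, or the 2 of largest size, of which some are given only as counts. Relations across animals used deviations from group means and 100000 permutations within groups; the design named Cyp4a10, Pdk4 and Fgf21, and the shared probe set stood in for Cyp4a10. The fit on Cyp4a14 over all probe sets and the cell type relations were added after the data were seen. Gene symbols came from the platform's annotation table and promoter letters from RefSeq. Alternatives are given in the closing section. Raw scans were not used here.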

Additional observations from a re-analysis of the deposited data

Results flagged for a closer look

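In 120 tests of single groups of the members, 6 values stood apart from the rest of their group by Dixon's criterion. That is about as many as the 1 in 20 that chance gives over all groups. Most of the 6 were in treated livers at 21 d, so the rate over all groups does not describe that group. Members that vary together are also not separate tests. In treated livers at 21 d, replicate 5 had the highest Cyp4a31 (8.82, the others 6.51 to 7.15), the lowest Cpt1a (11.70, the others 12.03 to 12.09) and the lowest Acadm (13.29, the others 13.35 to 13.37). It also had the highest Cyp4a14 of all 23 animals, 12.08. Replicate 2 of that group had the lowest Aldh3a2 (9.84, the others 10.69 to 10.90), and replicate 3 the highest Acot4 (7.09, the others 6.29 to 6.45). In treated livers at 90 d, replicate 5 had the highest Pdk4 (8.97, the others 6.31 to 7.20), on the array with high muscle markers; the part of muscle was not tested.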

How the results depend on the processing

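Of 505 values of named genes under 12 alternatives other than leaving out 1 array, 479 kept their direction and their side of the threshold, 5 lost it and 21 changed sign. Of the changes of sign listed here, none was past the threshold, except that Cd36 at 21 d, -0.16 with all arrays, was 1.45 (limma adjusted p = 0.0336) without the 5 arrays named next; the cause was not tested. Without the 5 arrays above 0.9 in the Gapdh difference, which leaves 1 treated array at 21 d, 1 member passed at 21 d (Cd36), and other pathway genes passed in 5 cases at 90 d, 1 for the difference of effects and 1 between treated groups. There the difference of effects became -1.20 for Cd36, 0.11 for Acot3, 0.67 for Acot1, 1.55 for Cyp4a14 and 0.16 for Ppargc1b. Treated at 90 d against 21 d became -1.23 for Cd36, -0.29 for Angptl4, -0.20 for Plin2, 0.48 for Cyp4a14, 0.79 for Acot3, 0.40 for Ppara and 0.12 for Ppargc1b, and Ppara at 21 d became -0.29. With the Gapdh difference as a covariate, 0 other pathway genes passed at 21 d and 2 at 90 d. Ppara was -0.011 at 21 d and 0.028 between treated groups, and Cd36 was -0.35 for the difference of effects and -0.20 between treated groups. With the largest-variance probe set, Cpt1a at 90 d was -0.057 and the Hadhb difference of effects -0.25, and other pathway counts were 2 at 21 d and 1 between treated groups. With the mean of all probe sets the Hadhb difference was -0.035 and the counts were 3 and 2. Median centring made the Ppara difference -0.0040. Other pathway counts were 3 at 21 d over probe sets with a mean of at least 6, beside 813 of 19345 probe sets. With array weights they were 9 at 21 d and 3 at 90 d, beside 1426 and 463 of 45037. In a fit of the compared groups only, not run for the difference of effects, the count was 0 at 90 d, beside 149.

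With 1 array left out, 0 to 1 members passed at 21 d and 0 to 2 between treated groups. Other pathway counts were 1 to 13 at 21 d, 0 to 3 at 90 d and 0 to 6 between treated groups. Over all 45037 probe sets the counts ran from 133 to 2265, from 114 to 389 and from 10 to 1644 in the same order. The difference of effects ran from -0.94 to 0.15 for Cyp4a14 and from -0.11 to 0.12 for Ppara. At 90 d the treatment difference of the 3' minus 5' value ran from -0.11 to 0.11 for Gapdh and from -0.20 to 0.018 for beta-actin. Members passing with Cyp4a14 numbered 1 to 6, with 1 in vehicle animals, 0 in treated animals and 8 with the Gapdh term. The r of Pdk4 was -0.14 in treated animals, and that of Fgf21 missed the threshold in vehicle (0.41) and in treated animals (0.58). With 1 and 0 mismatches allowed, 1 and 0 members held a DR1 match. No label pairs the animals, and correlations of same-numbered animals ran from -0.36 to 0.34. With the replicate number as a block, 0 other pathway genes passed at 21 d, since Abcd2 (-1.07) had an adjusted p of 0.051. Without scanner files, signal over background could not be judged.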
